A study of Sus scrofa with 2 samples.

Results

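miR-378 is a microRNA (miRNA) of mammals whose precursor is cut into 2 strands, the abundant 3p strand and the scarce 5p or passenger strand. Its levels were examined in 2 pig muscles, the oxidative *psoas major* (PMM) of the loin and the glycolytic *longissimus dorsi* (LDM) along the spine. Every pig (ssc) entry numbered miR-378 was taken, whatever its letter, copy or arm, which gave 2 of the 668 entries of the table of normalised miRNA reads. The first, ssc-miR-378-1-3p,ssc-miR-378-2-3p, is named for the 3p strand of both precursor copies and is called miR-378-3p here. The second is ssc-miR-378-1-5p, the passenger strand of copy 1.

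Both muscles came from the same female Landrace pigs, untreated and 210 days old, which were kept off feed before slaughter. RNA of the pigs was pooled within each muscle, and 1 small RNA library was read per muscle. The spread between pigs was therefore not measured, no difference below has a replicate check, and all intervals are 95% intervals of counting error only. The values summed to 8556672 normalised reads in PMM and 8750049 in LDM. The 6 of 8 listed miRNAs of striated muscle that were found by name held 51.2% of the PMM reads and 68.6% of the LDM reads. The extraction text of the labels speaks of adipose tissue, whereas every other label and these muscle miRNAs give muscle.

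A miRNA guides the Argonaute complex to messenger RNAs that pair with its seed, positions 2 to 8 from the 5′ end, and those messages are then silenced. MIR378-1 lies within PPARGC1B, the gene of a coactivator that drives mitochondrial gene programmes, and MIR378-2 lies within BCAS3 (RefSeq gene table of assembly Sscrofa11.1, which is not the build of the authors). In mice lacking both strands of miR-378, oxidative capacity is raised and the carnitine acetyltransferase CRAT and the Mediator subunit MED13 are targets. In mouse myoblasts miR-378-3p represses the inhibitor of differentiation MyoR. In human cells it represses SUFU, an inhibitor of Hedgehog signalling, and the tumour suppressor TUSC2, and the 5p strand targets ERRγ and GABPA, a pair of transcription factors of oxidative metabolism.

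The consensus sequences of both strands are shown first because the seed decides which messages a strand can pair with. Sequences are 5′ to 3′ with the DNA letters of the table, and the seed is in capitals.
miR-378-3p: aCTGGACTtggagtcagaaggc
miR-378-1-5p: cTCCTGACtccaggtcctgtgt
The 3p seed pairs with AGTCCAG in a message and the 5p seed with GTCAGGA. The strands of 1 precursor therefore read different sites. Each strand was 22 nt long, the length of 44.2% of all entries. G and C made up 54.5% of miR-378-3p and 59.1% of miR-378-1-5p.

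Both strands of a precursor pair with each other before 1 of them is loaded. In a predicted duplex of the consensus sequences (RNAduplex, minimum free energy −29.4 kcal/mol) 18 base pairs formed, including a run of 14 without a gap. Paired bases are in capitals, and G-T (G-U in RNA) pairs are counted.
miR-378-1-5p: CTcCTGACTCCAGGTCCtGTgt
miR-378-3p: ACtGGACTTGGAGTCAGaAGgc
The longest exact complement was 9 nt and joined positions 4 to 12 of the 5p strand to positions 9 to 17 of the 3p strand. It lay outside the 3p seed and covered most of the 5p seed.

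No other entry, with an ssc, PN or PC name, shared positions 2 to 8 of miR-378-3p. The count was also 0 for positions 2 to 7 and for the same letters shifted to positions 1 to 7. The nearest consensus sequence to miR-378-3p was 8 letter changes away, so entries with near-identical letters among which its reads could be split were not found. The same held for miR-378-1-5p, whose seed was shared by 0 entries and whose nearest sequence was 7 changes away. A seed held by a single entry was the usual case, with 509 of the 572 seeds of the table (89.0%). What the authors meant by PN and PC names was not stated in the labels or methods.

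The highest entries beside miR-378-3p are shown with their closest relatives to compare seeds. With miR-378-3p, miR-1-3p and miR-133a-3p were the 3 highest entries of both libraries, and miR-148a-3p came next.
miR-1-3p: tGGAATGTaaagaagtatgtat
miR-206-3p: tGGAATGTaaggaagtgtgtga
miR-133a-3p: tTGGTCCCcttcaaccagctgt
miR-133b-3p: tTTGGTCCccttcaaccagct
miR-148a-3p: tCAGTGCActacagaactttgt
miR-1 and miR-206, which promote muscle differentiation, share a seed. That of miR-148a was held by 3 entries. That of miR-133a, a repressor of serum response factor in muscle, was held by 1 as listed. The seed letters of miR-133a stood at positions 3 to 9 of miR-133b, because the deposited sequence of miR-133a begins 1 letter later. The single entry of that seed therefore rests on this shift, unlike miR-378-3p, whose seed letters stood nowhere in any other entry. miR-378-3p began with A, whereas the other 9 of the 10 highest entries all began with T. Over all entries 27.1% began with A and 38.6% with T.

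Setting the oxidative against the glycolytic muscle asked how much of each library miR-378 makes up. miR-378-3p had 1716472 normalised reads in PMM against 1025832 in LDM. It held 20.1% of the PMM reads (exact Clopper-Pearson interval 20.0 to 20.1) and 11.7% of the LDM reads (11.7 to 11.7). It was 1.67-fold higher in PMM (exact conditional binomial interval 1.67 to 1.68), a log2 ratio of 0.74. In PMM 1 read in 5 was therefore miR-378-3p.

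The share of miR-378-3p was 8.34 percentage points higher in PMM, and no other entry of the 668 gained as many. miR-148a-3p, a miRNA of fat cell and muscle differentiation, came second with 3.50 points. All gains together came to 19.0 points, of which miR-378-3p made up 43.9%. A gain in points depends on the level of an entry as well as on its ratio. By fold, 3 of the other 9 highest entries rose more than miR-378-3p, miR-148a-3p among them, and 6 did not. The losses lay mainly with miR-1-3p, at −14.9 points, and miR-133a-3p, at −3.16 points. Shares in a library add to a fixed total, so a gain of 1 entry and a loss of another are not independent. Without miR-1-3p in the denominator, miR-378-3p held 28.1% in PMM and 20.8% in LDM.

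**Figure D1:**
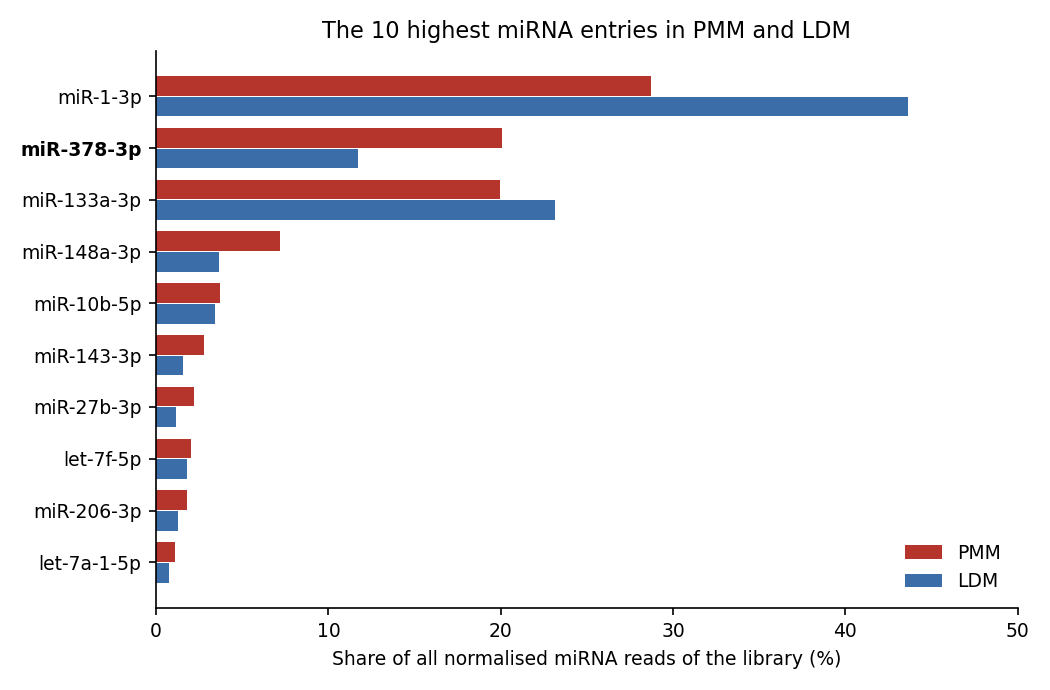
Share of all normalised miRNA reads (horizontal axis, %) held by each of the 10 highest entries, with PMM bars above LDM bars (1 library each, no error bars). miR-378-3p, in bold, reached 20.1% in PMM and 11.7% in LDM, while miR-1-3p and miR-133a-3p had shorter bars in PMM than in LDM.

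By level miR-378-3p ranked 2 in PMM and 3 in LDM, and the entry it changed places with was miR-133a-3p. In PMM miR-378-3p exceeded miR-133a-3p by only 6772 reads, 0.396% of the reads of miR-133a-3p. Of the reads of both, miR-378-3p made up 50.1% in PMM (50.05 to 50.15) and 33.6% in LDM (33.6 to 33.7). The lead in PMM is larger than counting error, but whether it is larger than the spread between pigs cannot be said from 1 library. When entries were summed by miRNA number, which joins miR-133a with miR-133b, miR-133 held 20.5% of PMM and 23.7% of LDM and miR-378 held 20.1% and 11.7%, so that miR-378 ranked 3 in both libraries. Summed by shared seed it kept rank 2 in PMM and rank 3 in LDM. The rank of 2 in PMM rests on the shifted seed window of miR-133b. Together miR-133a-3p and miR-133b-3p had 1746866 normalised reads in PMM, above the 1716472 of miR-378-3p.

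Ratios between entries of a library do not depend on how the libraries were scaled. In PMM there were 0.699 reads of miR-378-3p for each read of miR-1-3p, against 0.269 in LDM, a change of 2.60-fold. Relative to miR-133a-3p the values were 1.004 in PMM and 0.507 in LDM (1.98-fold). Relative to miR-10b-5p, encoded among HOX genes, they were 5.43 and 3.46 (1.57-fold), and relative to let-7f-5p, of a family that restrains growth, 10.0 and 6.59 (1.52-fold). Against miR-206-3p and let-7a-1-5p miR-378-3p gained 1.21-fold and 1.15-fold. miR-148a-3p went the other way, with 2.80 miR-378-3p for each miR-148a-3p in PMM and 3.20 in LDM. The same was true of miR-27b-3p (9.21 in PMM and 10.17 in LDM), which acts on blood vessels and fat cells, and of miR-143-3p (7.25 and 7.51), a smooth muscle miRNA. Thus miR-378-3p had a higher PMM to LDM ratio than 6 of the other 9 highest miRNAs and a lower one than 3.

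The passenger strand was far less abundant than the 3p strand, and its level was also higher in PMM as deposited. miR-378-1-5p had 2493 normalised reads in PMM against 1717 in LDM, or 0.0291% of the PMM reads (0.0280 to 0.0303) and 0.0196% of the LDM reads (0.0186 to 0.0206). It was 1.45-fold higher in PMM (1.36 to 1.55), a log2 ratio of 0.54. After centring on the median ratio of abundant entries the log2 ratio was 0.0644 and its counting interval (−0.0265 to 0.160) included 0. It ranked 71 in PMM and 68 in LDM.

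Its neighbours in rank show how finely that order is set. In PMM miR-128-3p, just above it with 2505 reads, differed from it by less than counting error (5p strand over miR-128-3p 0.995, 0.941 to 1.05), whereas miR-195-5p, just below, was lower (5p strand over miR-195-5p 1.42, 1.33 to 1.51). In LDM the next entry above, PC-289-5p (0.988, 0.919 to 1.06), and the next below, miR-499-5p (1.03, 0.954 to 1.10), were both within counting error of it. miR-499-5p, whose gene sits in an intron of the myosin gene MYH7B, had 20415 normalised reads in PMM against 1673 in LDM, so entries at the same level as the passenger strand in LDM did not stay together in PMM.

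**Figure D2:**
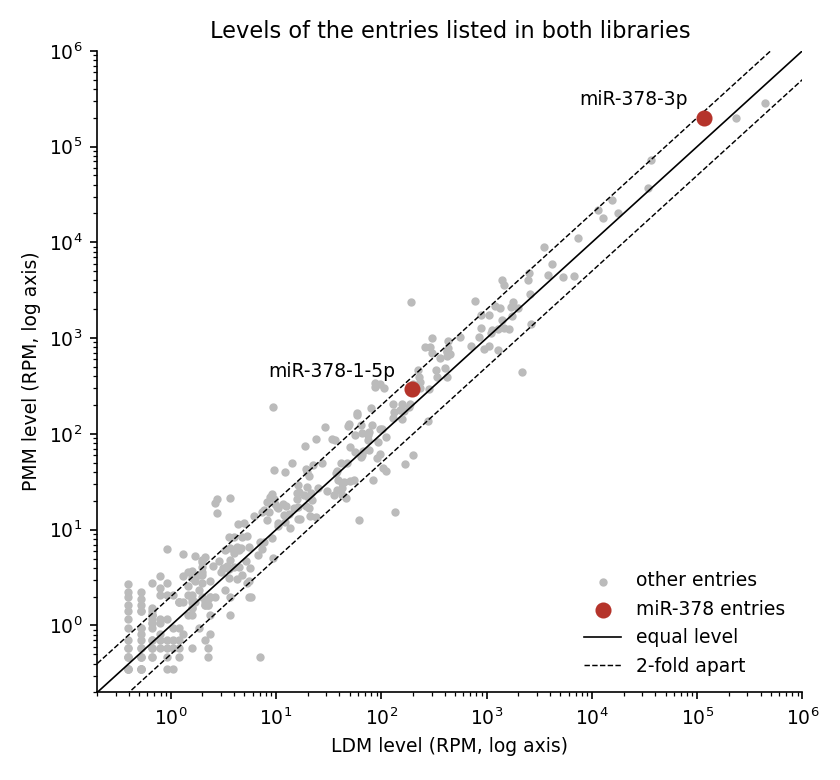
Level of each of the 349 entries listed in both libraries, in normalised reads per library total of 1000000 (RPM), with PMM on the vertical and LDM on the horizontal log axis. Both miR-378 entries lie above the line of equal level and inside the dashed 2-fold lines, near 200600 RPM in PMM for the 3p strand and near 291 RPM for the 5p strand.

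The size of both changes was then read against all entries. The log2 ratio used for counts carries a pseudocount of 1 RPM, and 185 entries averaged 10 RPM or more over both libraries. In PMM 21.6% of these (40) passed 2-fold upwards and 6.49% (12) downwards, against 21 and 26 after centring on the median, and 0 of the 2 miR-378 entries passed in either direction. At a limit of 1.5-fold 40% of entries were higher in PMM and 13.5% lower, and 1 of 2 miR-378 entries, the 3p strand, was among the higher ones. A share of 1 in 2 near a background of 40% is no result about miR-378. The median log2 ratio of the 185 entries was 0.35 (1.28-fold), and 71.4% of them were higher in PMM as deposited.

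miR-378-3p had a higher ratio than 124 of the 185 entries (67.0%) and a lower one than 60. miR-378-1-5p had a higher ratio than 106 (57.3%) and a lower one than 78. Of the 91 entries that averaged 100 RPM or more, 59 had a lower ratio than miR-378-3p and 31 a higher one. In the order of ratios, therefore, miR-378-3p stood above the middle and not among the extremes, whereas by level it was already at rank 3 in LDM.

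**Figure D3:**
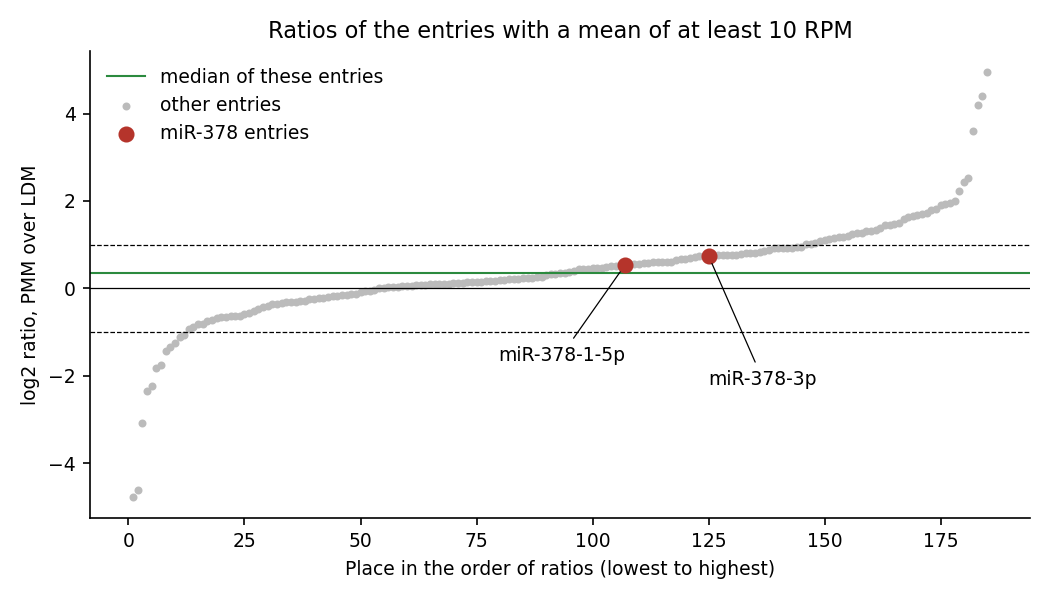
Log2 ratio of PMM over LDM (vertical axis, pseudocount 1 RPM) of the 185 entries averaging 10 RPM or more, placed from the lowest to the highest, with dashed lines at 2-fold and a green line at the median of 0.35. The miR-378 entries, at 0.74 for the 3p strand and 0.54 for the 5p strand, lie above the median and below the upper 2-fold line.

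The factor between the libraries bears on the size of the change. Relative to the median of the 91 entries of at least 100 RPM, the log2 ratio was 0.27 for miR-378-3p and 0.0644 for miR-378-1-5p, the value given above. Between these values and those as deposited lay the other scalings, except for the library totals, which gave 0.77 for the 3p and 0.57 for the 5p strand. Both strands were higher in PMM under all 6 scalings as point values, and miR-378-3p exceeded the 5p strand in each, since a scaling shifts both alike.

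**Figure D4:**
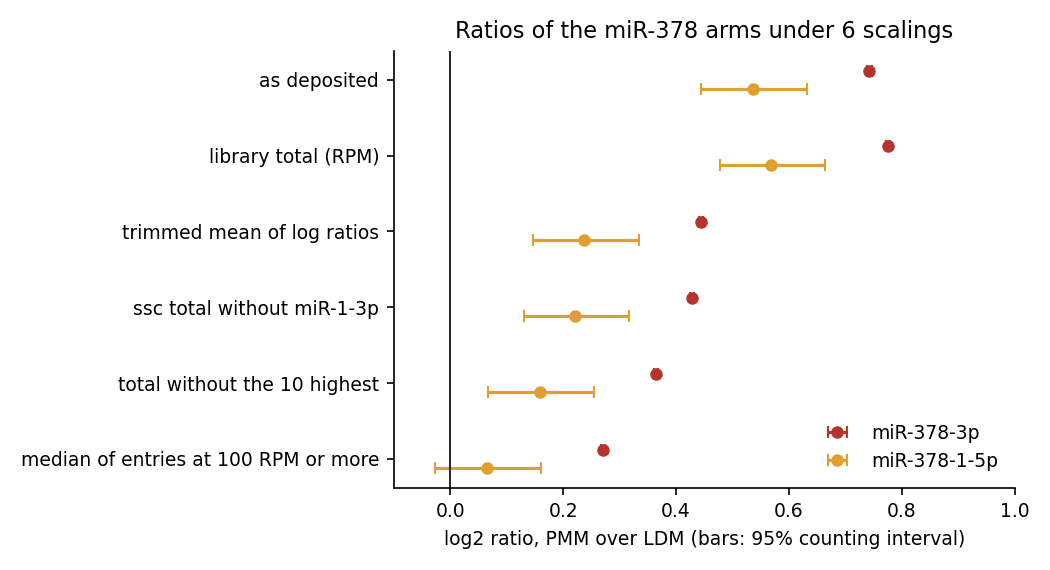
Log2 ratio of PMM over LDM (horizontal axis) of miR-378-3p and miR-378-1-5p under 6 scalings of the libraries, with bars for the 95% counting interval. Points of the 3p strand run between 0.27 and 0.77, and the interval of the 5p strand reaches 0 in the bottom row.

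The arm ratio gives how unequally the strands of a precursor are kept. For each read of miR-378-1-5p there were 689 reads of miR-378-3p in PMM (exact interval 662 to 716) and 597 in LDM (568 to 629). The passenger strand made up 0.145% of the reads of both strands in PMM (0.139 to 0.151) and 0.167% in LDM (0.159 to 0.176). The arm ratio was 1.15-fold higher in PMM (1.08 to 1.23, Wald interval of the log odds), or 0.20 on the log2 scale, so the 3p strand exceeded the 5p strand by slightly more in PMM than in LDM. The 3p entry joins both copies of the precursor, whereas the 5p entry is named for copy 1 alone, so the ratio is not that of 1 precursor. Neither entry is named for a 5p strand of copy 2.

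In 43 pairs of pig entries whose lower arm had a mean of at least 10 RPM, the stronger arm exceeded the weaker by a median of 6.89-fold in PMM and 6.26-fold in LDM. Some pairs share an entry, as miR-181a-1 and miR-181a-2 share their 5p entry, so counts of pairs are not all of separate entries. The miR-378 pair ranked 4 in each library. More unequal were miR-10b, miR-143 and miR-148a in PMM, and miR-10b, miR-133a-1 and miR-143 in LDM. Among all 96 pairs listed in both libraries, which include arms of a few reads, it ranked 15 in PMM and 16 in LDM.

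Between the muscles the miR-378 pair shifted little. In the 43 pairs the median shift of the arm ratio was 0.59 on the log2 scale, 34 pairs shifted more than miR-378 and 8 shifted less. Of the abundant 3p miRNAs, miR-148a shifted by 1.10 and miR-143 by 0.52 towards the 3p arm in PMM, and miR-133a-1 by 0.68 towards the 5p arm (−0.68). As deposited, both arms were higher in PMM in 27 pairs, as in miR-378, both were lower in 4 and they went opposite ways in 12. After centring these counts were 16, 15 and 12, so the excess of higher pairs rests on the scaling.

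**Figure D5:**
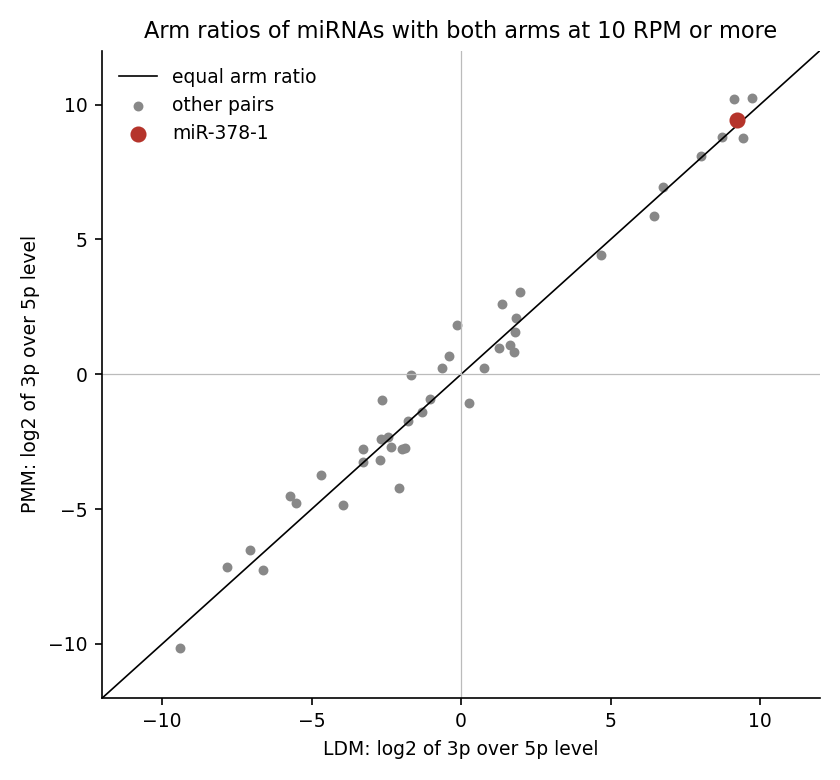
Log2 of the 3p over the 5p level in PMM (vertical axis) and LDM (horizontal axis) for the 43 pairs whose lower arm had a mean of at least 10 RPM. The miR-378-1 pair lies at 9.43 in PMM and 9.22 in LDM, near the upper end and close to the line of equal arm ratio.

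With 2 libraries, likeness to miR-378 can be measured only as nearness of the log2 ratio. Among the same 91 entries the 5 nearest to miR-378-3p were PN-13-5p (1.68-fold higher in PMM), miR-208b-3p (1.69-fold), the joint entry of miR-199a-2-3p and miR-199b-3p (1.70-fold), miR-181a-2-3p (1.70-fold) and miR-126-3p (1.63-fold). miR-208b-3p, which is carried in an intron of the slow myosin gene MYH7, had 5344 normalised reads in PMM against 3167 in LDM. miR-126-3p, made by endothelial cells from the gene EGFL7, had 14898 against 9123. The farthest of the 5 differed from miR-378-3p by 0.0356 on the log2 scale. For miR-378-1-5p the farthest of its 5 differed by 0.0524, so such nearness was not particular to miR-378-3p. Whether entries near in ratio share anything else was not tested. Nearest to miR-378-1-5p were let-7a-1-5p (1.46-fold), miR-18PN-5p (1.49-fold), PN-15-3p (1.41-fold), miR-574-3p (a log2 ratio of 0.58) and miR-374a-5p (0.59).

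Lists of miRNAs that act in the same fields as miR-378 were counted beside it, each precursor by its highest entry. As deposited 71.4% of the 185 entries of at least 10 RPM were higher in PMM, and after centring 45.4% were, and the counts of every list are to be read against these shares. In striated muscle 3 of the 6 miRNAs found were higher in PMM and 3 lower, with a median log2 ratio of 0.11 that fell below 0 after centring, with the trimmed mean and with the total that leaves out the 10 highest entries. The PMM level over the LDM level was 0.643 for miR-1-3p, 0.845 for miR-133a-3p, 0.806 for miR-133b-3p and 1.39 for miR-206-3p. The less abundant miR-208b-3p and miR-499-5p had the largest values of the list, 1.69 and 12.2. Among miRNAs linked to mitochondria and energy metabolism 8 of 10 were found, 4 higher and 4 lower in PMM as deposited, with a median of −0.0868 that turned positive (0.17) with all entries of each precursor. The 4 lower include miR-23a-3p (6394.7 normalised reads in PMM against 11204 in LDM), whose values break the pattern of units described under processing. With its columns exchanged it would be 1.75-fold higher in PMM. The equal counts and the sign of the median rest on its direction, which is uncertain. miR-103-3p, hosted by a pantothenate kinase gene, had 1258 normalised reads in PMM against 1120 in LDM (1.12-fold, 1.03 to 1.22). As deposited, only miR-499-5p of this list (12.2-fold higher in PMM) had a higher ratio than miR-378-3p, and miR-23a-3p would too with its columns exchanged.

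Among miRNAs of blood vessel growth 8 of 9 were found and 6 were higher in PMM (75%, near the share of all entries, and 4 after centring), with a median of 0.31 that fell below 0 under centring and the total without the 10 highest. miR-27b-3p (1.85-fold) and miR-130a-3p (1.95-fold) had higher ratios than miR-378-3p, and miR-10b-5p (1.06-fold) a lower one. Among miRNAs of myoblast differentiation 9 of 12 were found, 5 higher and 4 lower, with a median of 0.0995 that fell below 0 under the same scalings as striated muscle. In the list of fat cells and lipid 7 of 9 were found and 6 were higher, or 4 after centring, with a median of 0.79 that stayed above 0 under every alternative run, and 4 of the 7 had a higher ratio than miR-378-3p, namely miR-148a-3p, miR-143-3p, miR-27b-3p and miR-27a-3p (2.02-fold). 1 of the 6, miR-122-5p, had only 10 normalised reads in PMM against 8.1 in LDM, with an interval of the ratio from 0.427 to 3.84. Lists overlap, as miR-27b-3p shows, so their counts are not separate. miR-103-3p and miR-107-3p, the 2 of 4 found among miRNAs hosted in introns of metabolic genes, had log2 ratios of 0.17 and −0.22, the second from 54 normalised reads in PMM and 64.4 in LDM.

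Marker miRNAs of other cells in muscle were counted as well, against the same 71.4% of entries that were higher in PMM as deposited. The summed level of the endothelial list (4 of 4 found, 3 higher) was 1813 RPM in PMM and 1088 RPM in LDM, 1.67-fold. Most of it was miR-126-3p, with 1741 RPM in PMM and 1043 RPM in LDM. In RPM, miR-378-3p was 1.71-fold higher in PMM, against 1.67-fold in the values as deposited. That of the fibroblast list (4 of 5 found, 4 higher) was 11300 RPM in PMM and 6636 RPM in LDM, that of the leukocyte list (3 of 4 found, 3 higher) 177 and 95.9 RPM, and that of the smooth muscle list (2 of 2 found, 2 higher) 29221 and 17000 RPM. Most of the smooth muscle sum was miR-143-3p, with 27667 RPM in PMM and 15604 RPM in LDM. Its other member, miR-145-5p, had 1553 and 1396 RPM. After centring the counts of higher members stayed at 3, 4 and 3 in the endothelial, fibroblast and leukocyte lists and came to 1 in the smooth muscle list, where miR-145-5p fell below 0, as did miR-451-5p. miR-451-5p of red blood cells had 1026 RPM in PMM and 853 RPM in LDM. Epithelial miRNAs (2 of 6 found) summed to 1.64 and 3.68 RPM, with miR-429-3p at 3 reads in PMM and listed at 0 in LDM. The liver miRNA miR-122-5p had 1.17 and 0.921 RPM. The part of these cells in the difference of miR-378 was not tested. In whole muscle, a different number of cells of a type and a different amount of RNA per cell cannot be told apart.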

How the data were processed

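Small RNA of pooled PMM and LDM RNA was sequenced single-end on a Genome Analyzer (Illumina), 1 library per muscle. The deposited table gives, per the file headers, reads normalised by the authors, treated here as a signal. The submitters' notes name Sscrofa 10.2, whereas the mapper and the way of normalising are not given in the sources used here. LDM values above 0 were whole multiples of 1.15 units in all but 1 of 424 entries (tolerance 0.001 of a multiple) and PMM values whole numbers in all but 1 of 593, so LDM reads were taken as values divided by 1.15 units. The totals were then 8556672 reads in PMM and 7603850 in LDM. Both miR-378 entries followed the pattern. The exception in both columns was miR-23a-3p, with 6394.6582 in PMM and 11204 in LDM. Its PMM value is a whole multiple of the LDM unit and its LDM value a whole number. Whether its columns were exchanged was not tested. It was kept as deposited, and so counts as lower in PMM among the 185 entries and in the list of mitochondria and energy metabolism. The deposited column headed Fisher exact test holds p-values of the authors' own comparison and was not used, and the Length (nt) column holds other values, lengths in nt. The sum column holds LDM plus PMM.

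Shares have exact Clopper-Pearson intervals and ratios exact conditional binomial intervals. Reads carried no molecular identifiers, so these cover counting error only. With 1 library per muscle no test was run. A pseudocount of 1 RPM was added only for log2 ratios. The entries named are those of miR-378, the 10 highest, the 5 nearest in ratio above 100 RPM and up to 4 members per list, beside neighbours in rank and in the genome and the leading arm pairs, chosen after values were seen. Members and lists were chosen with earlier results of these data known. The trimmed mean left out 30% of ratios and 5% of levels at each end. Intervals were tested on simulated reads with counting error only, the error they assume, so that run does not bear on the spread between pigs. Duplexes were predicted with ViennaRNA 2.7.2, figures drawn with matplotlib 3.10.9 and values computed with scipy 1.17.1, pandas 2.3.3 and numpy 2.4.6 under Python 3.11.15.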

Additional observations from a re-analysis of the deposited data

How the results depend on the processing

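The log2 ratio of miR-378-3p (0.74) was 0.27 after centring on the median, 0.44 with the trimmed mean of log ratios, 0.37 with the total without the 10 highest entries, 0.43 with the total of ssc entries without miR-1-3p and 0.77 by library totals. Other pseudocounts moved it by less than its counting interval. Each scaling multiplies all PMM values by a single factor, which shifts every ratio alike by construction. With ssc entries as denominator the share of miR-378-3p was 20.2% in PMM and 11.8% in LDM, and without miR-1-3p 28.1% and 20.8%. Its rank in PMM was 3 with entries summed by miRNA number, an alternative chosen after seeing the data, as were those of the 5p strand and of filtered arm pairs and the counts of higher and lower list members and pairs. With no filter on low values 74.8% of entries had a lower ratio. Of entries 2-fold higher and lower (40 and 12) there were 19 and 4 at 100 RPM, 84 and 35 without a filter, 74 and 25 at 1.5-fold, 21 and 26 after centring, 27 and 18 with the trimmed mean and 23 and 24 without the 10 highest. List medians changed sign as follows. Striated muscle was −0.36 after centring, −0.18 with the trimmed mean and −0.26 without the 10 highest, and myoblast differentiation −0.37, −0.20 and −0.28. Blood vessel growth was −0.17 after centring and −0.0724 without the 10 highest. With all entries of each precursor, mitochondria and energy metabolism was 0.17 and miRNAs hosted in introns of metabolic genes 0.17. The negative main median of the mitochondria list rests on miR-23a-3p as deposited. The arm ratio by place within the hairpin was not run, since no hairpin sequence was used here. No paired analysis was possible because each muscle had 1 library. At the depth of these libraries counting error limits miR-378-1-5p but hardly miR-378-3p.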

Other observations

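The miRNA genes nearest to MIR378-1 by name in the RefSeq table of assembly Sscrofa11.1 are MIR145 and MIR143, a smooth muscle cluster, and those nearest to MIR378-2 are MIR21 and MIR142. Since the 3p entry joins both copies, their shares of its reads cannot be told apart. Beside miR-378-3p, at 1.67-fold higher in PMM, miR-143-3p was 1.73-fold higher (236740 normalised reads in PMM against 136536 in LDM, interval 1.72 to 1.75). miR-145-5p, of the same cluster as miR-143, was 1.09-fold higher (13292 against 12217, interval 1.06 to 1.12). The scarcer arms of that cluster were 1.21-fold higher for miR-143-5p (interval 0.968 to 1.51) and 1.58-fold higher for miR-145-3p (interval 1.19 to 2.10), so the arms do not separate miR-143 from miR-145 in 1 direction. miR-21-5p was 1.39-fold higher (1.37 to 1.41) and miR-142-3p 1.43-fold higher (1.26 to 1.63). These genes were looked up after the values of their miRNAs were known, and no test of shared control was run.

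A further precursor, MIR378B, lies within RGS3 in that table. Neither of the 2 miR-378 entries is named for it.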
